A study of Saccharomyces cerevisiae with 12 samples.

Results

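The transcripts of 8 genes that form or control the cyclin-dependent kinase Cdc28 of budding yeast were compared between G1-arrested cells with induced replication, G1-arrested wild-type cells and wild-type cells in S phase. The genes were taken by name from the 6412 genes listed in each sample: CDC28, CKS1, SIC1, FAR1, SWE1, MIH1, CDH1 and CDC4. All strains were built in the W303 background. Strain YKR1503 (bypass G1) carried Dpb11, the phosphorylation-mimicking sld2-T84D and Dbf4 under the galactose-inducible pGAL1-10 promoter, which bypasses the CDK and DDK controls of replication initiation. Bypass G1 cells and wild-type G1 cells (YKR1500) were held in α-factor for 2.5 h in raffinose medium and then kept under the inducing condition, galactose, for 3 h. Wild-type S cells (E3087) were held in α-factor for 2.5 h and sampled 30 min after their release into fresh medium, a step for which the labels name no galactose. Each group was a strain of its own, so that strain, sugar, time in arrest and cell cycle phase cannot be told apart in the comparisons with S phase, nor strain and bypass between the G1 groups. There were 4 replicates in each group, and nothing in the labels says that they were separate cultures, in which case the p-values measure only the spread between these samples.

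Cdc28 becomes an active kinase only with a cyclin bound, and its activity is low in G1 and high from S phase to mitosis. Cks1 is the small subunit that binds the kinase and docks it on substrates that are already phosphorylated. Inhibitors hold the kinase back in different ways: Sic1 blocks Cdc28 bound to B-type cyclins in G1, Far1 blocks Cdc28 bound to G1 cyclins when pheromone is sensed, and the Wee1-type kinase Swe1 phosphorylates a tyrosine of Cdc28 that the Cdc25-type phosphatase Mih1 clears. Degradation is the other layer, in which Cdh1 directs the anaphase-promoting complex (APC/C) to mitotic cyclins in G1 and Cdc4, the F-box subunit of an SCF ubiquitin ligase, directs phosphorylated Sic1 and Far1 to the proteasome. Much of this control acts on proteins, which were not measured in these libraries.

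The bases upstream of the coding starts are shown for the inhibitor genes SIC1 and SWE1, which hold motif matches. The levels of their known transcription factors are given further on. FAR1, also an inhibitor gene with a known factor, matched none of the motifs searched and is not shown. Capitals mark matches on either strand to CCAGC (the core bound by Swi5, GCTGG when read on the other strand) and to CNCGAAA (the element bound by SBF, the Swi4-Swi6 factor), and positions are counted from the first base of the start codon. Both stretches are from the RefSeq R64 genome, the sequence of the build (sacCer3) used for the files, and are printed 5′ to 3′ on the strand of the gene.
SIC1, chr12:286570-286869, + strand, 250 bases before to 50 bases after the start: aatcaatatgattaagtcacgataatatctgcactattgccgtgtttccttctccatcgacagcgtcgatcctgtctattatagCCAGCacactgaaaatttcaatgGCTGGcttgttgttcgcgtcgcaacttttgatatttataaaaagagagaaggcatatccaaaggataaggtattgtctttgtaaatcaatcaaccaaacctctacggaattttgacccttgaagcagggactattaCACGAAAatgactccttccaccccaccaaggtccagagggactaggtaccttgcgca
SWE1, chr10:79293-79592, - strand, from -330 to -31: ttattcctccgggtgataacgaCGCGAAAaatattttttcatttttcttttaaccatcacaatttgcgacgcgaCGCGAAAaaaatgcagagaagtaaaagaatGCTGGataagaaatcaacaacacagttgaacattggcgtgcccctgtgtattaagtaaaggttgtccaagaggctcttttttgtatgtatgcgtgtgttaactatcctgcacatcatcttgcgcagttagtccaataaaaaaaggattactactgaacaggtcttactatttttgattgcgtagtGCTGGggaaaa
In the SIC1 stretch, the CCAGC matches lie at -166 and -143 and the CNCGAAA match at -7, each given by its base farthest upstream. In the SWE1 stretch, the CNCGAAA matches lie at -308 and -256 and the CCAGC matches at -226 and -41. In windows from 250 bases before to 50 bases after the start, CCAGC was present in 22.7% of the 6001 promoters of the genome, CNCGAAA in 13.8%, TGAAACA (the pheromone response element bound by Ste12) in 7.5% and ACGCGT (bound by MBF, the Mbp1-Swi6 factor) in 3.07%. In these windows 4 of the 8 genes had a CCAGC match (CDC28, CKS1, SIC1 and SWE1) and 1 had a CNCGAAA match (SIC1), while TGAAACA and ACGCGT matched in 0 of 8. A window of 600 bases before the start was added after the shorter windows had been searched. It holds the SWE1 matches to CNCGAAA, and it held CNCGAAA in 24.7% of the 5999 genes with such a window. The shorter SWE1 window held 0 matches to CNCGAAA. The SWE1 stretch from -330 to -31 was placed after that search and takes in both matches. None of the 4 motifs was found within either window of FAR1, MIH1 and CDH1, which says nothing of other windows or of the factors.

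Between 8162140 and 10545835 counts on genes were obtained per sample, and the 8 genes had at least 261 counts in every sample, so that all 8 passed the filter on low counts. The libraries were checked with marker transcripts as sums of TPM, a transcript level normalized to gene length and library size. The 5 pheromone-induced transcripts FUS1, FIG1, AGA1, FUS2 and PRM6 summed to between 8549 and 9614 TPM in the 8 G1 samples and to between 70.9 and 118 TPM in the S samples. The 6 G1/S transcripts CLN1, CLN2, PCL1, CLB5, CLB6 and RNR1 summed to between 69.7 and 86.1 TPM in the G1 samples and to between 1039 and 1295 TPM in S. By the test given below, RNR1 (log2 fold change 0.61 ± 0.08) and CLB5 (0.25 ± 0.09) were higher in bypass G1 than in wild-type G1. CLN2 was lower (-0.31 ± 0.08), and the others were not called. The call of CLB5 was lost in 3 of 20 alternatives, as in replicates 3 and 4 alone (0.15, adjusted p = 0.237), and that of CLN2 with spike-in scaling (-0.09, adjusted p = 0.518). The 3 induced genes DPB11, SLD2 and DBF4 summed to between 3712 and 4257 TPM in bypass G1 and to between 92.6 and 124 TPM elsewhere. Within each group, replicates 1 and 2 resembled each other and so did replicates 3 and 4. The pairs lay farthest apart in wild-type G1, the group to which bypass G1 and S were both compared. Values within these pairs are given where they change a call.

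Levels are given below as CPM, counts normalized to library size with TMM scaling, and log2 fold changes are from edgeR's quasi-likelihood test with p-values adjusted over all 5662 genes tested (two-sided, called below 0.1). Between bypass G1 and wild-type G1, 6 of the 8 genes were called, 3 higher (SIC1, SWE1 and MIH1) and 3 lower (CDC28, CKS1 and FAR1). Of all genes tested, 54.5% were called in this comparison, 26.0% higher and 28.5% lower. The sizes of these 6 log2 fold changes ran from 0.13 to 0.38. With counts summed within each replicate pair, 2 of the 8 genes were still called higher and 2 lower, without SIC1 and CKS1. Among all 5662 genes, 1471 were then called in place of 3083. In the comparison of S with wild-type G1, 6 of 8 were called, SWE1 higher and CDC28, SIC1, FAR1, MIH1 and CDH1 lower, against 83.8% of all genes (40.4% higher and 43.3% lower). Between wild-type S and bypass G1, 7 of 8 were called, SWE1 and CKS1 higher and the other genes except CDC4 lower, against 85.1% of all genes (41.5% higher and 43.6% lower). With libraries scaled by spike-in totals, 91.0% of the genes called between the G1 groups were higher in bypass G1, against 47.7% with TMM. Of the 8 genes, 5 were then called higher and 0 lower, beside 2534 higher and 252 lower of all 5662 genes. Nothing particular to the 8 genes is drawn from these counts.

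**Figure D1:**
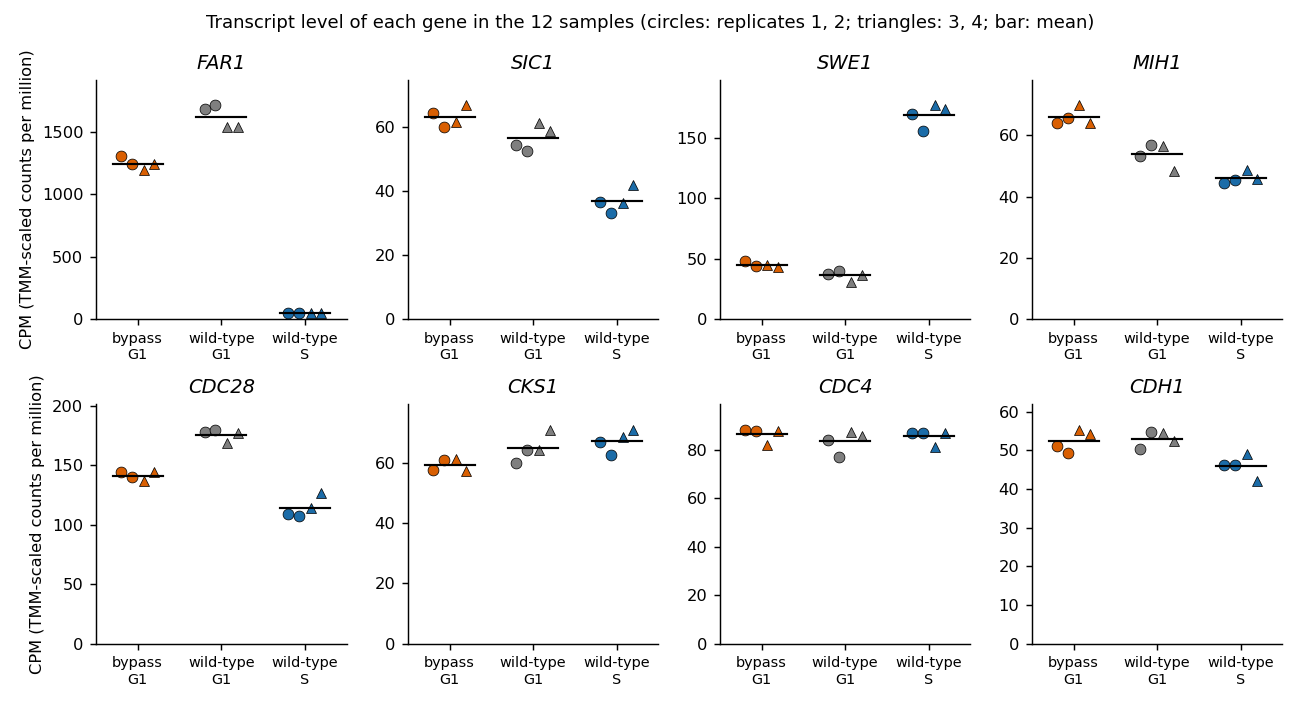
Transcript level of each of the 8 genes in CPM (vertical axes, each starting at 0) in the 4 samples of bypass G1, wild-type G1 and wild-type S; each point is 1 sample, circles are replicates 1 and 2, triangles replicates 3 and 4, and the bar is the group mean. FAR1 lies between 1189 and 1708 CPM in the G1 groups and between 48.1 and 49.9 CPM in S, SWE1 is between 155 and 177 CPM in S and at most 48.3 CPM elsewhere, and CDC4 and CKS1 overlap between wild-type G1 and S.

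The kinase subunit CDC28 (YBR160W, chromosome 2, 560078 to 560974, 1 coding exon) had its highest level in wild-type G1. In wild-type G1 its levels were 178, 180.1, 169 and 178 CPM in replicates 1 to 4, in bypass G1 145, 140.3, 137 and 144 CPM, and in S 109, 108, 115 and 127 CPM. The 3 groups did not overlap, with wild-type G1 highest and S lowest. CDC28 was lower in bypass G1 than in wild-type G1 by a log2 fold change of -0.31 ± 0.05 (SE, adjusted p = 0.000260), lower in S than in wild-type G1 by -0.62 ± 0.05 (adjusted p = 9.54e-08), and lower in S than in bypass G1 by -0.30 ± 0.05 (adjusted p = 8.77e-05). With libraries scaled by their spike-in totals, CDC28 between the G1 groups was at -0.10 and not called (adjusted p = 0.448). That scaling moved the median of all genes tested in this comparison from -0.02 to 0.20 (log2), and CDC28 stayed below that median. Because these are whole populations, fewer cells that transcribe a gene and less RNA per cell cannot be told apart, here and in each result that follows.

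CKS1 (YBR135W, chromosome 2, 504854 to 505306, 1 coding exon), the docking subunit, stayed between 57.4 and 71.0 CPM in all 12 samples. Its levels were 57.7, 60.8, 61.4 and 57.4 CPM in bypass G1, 60.1, 64.2, 64.4 and 71.0 CPM in wild-type G1, and 66.9, 62.8, 68.6 and 71.0 CPM in S. Samples of bypass G1 lay lowest, overlapping with wild-type G1 and not with S. The log2 fold change was -0.13 ± 0.06 between bypass G1 and wild-type G1 (adjusted p = 0.0735). This call was lost in 9 of 20 alternatives, with DESeq2 among them (adjusted p = 0.131), and spike-in scaling put CKS1 at 0.09 (adjusted p = 0.479). In replicates 1 and 2 alone it was at -0.06 (adjusted p = 0.442). CKS1 was higher in S than in bypass G1 by 0.18 ± 0.06 (adjusted p = 0.00834), but at 0.04 and not called with spike-in scaling (adjusted p = 0.680). S and wild-type G1 differed by 0.05 ± 0.06, which did not pass the test (adjusted p = 0.388).

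FAR1 (YJL157C, chromosome 10, 123836 to 126328 on the - strand, 1 coding exon), the inhibitor that pheromone induces and activates, had the largest difference of the 8 genes between S and G1. Its levels were 1302, 1243, 1189 and 1237 CPM in bypass G1 and 1681, 1708, 1538 and 1536 CPM in wild-type G1. In S they were 48.1, 48.2, 49.9 and 48.4 CPM. No group overlapped with another, and the S samples spread by 0.843 CPM (SD, n = 4). FAR1 was 33.2-fold lower in S than in wild-type G1 (log2 fold change -5.05 ± 0.06, adjusted p = 1.09e-15), and 27 of the 5662 genes had a more negative value. It was 25.5-fold lower in S than in bypass G1 (-4.68 ± 0.06, adjusted p = 1.80e-15). Between the G1 groups it was lower in bypass G1 by -0.38 ± 0.05 (adjusted p = 3.90e-05), or a level 0.769 times that of wild-type G1, and with spike-in scaling it was at -0.17 and not called (adjusted p = 0.183). The 5 pheromone-induced transcripts used for the check did not share this direction, since FUS1 (0.36 ± 0.09) and FUS2 (0.29 ± 0.08) were higher in bypass G1 and the other 3 were not called. With counts summed within each replicate pair, FUS1 (0.36, adjusted p = 0.176) and FUS2 (0.29, adjusted p = 0.207) lost their calls.

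SIC1 (YLR079W, chromosome 12, 286820 to 287674, 1 coding exon), the inhibitor of Cdc28 bound to B-type cyclins, had its lowest level in S. Its levels were 64.4, 60.1, 61.5 and 66.7 CPM in bypass G1, 54.4, 52.4, 61.1 and 58.6 CPM in wild-type G1, and 36.5, 33.2, 36.4 and 41.9 CPM in S. All S samples lay below all G1 samples, and the G1 groups overlapped through replicate 3 of wild-type G1. SIC1 was lower in S than in wild-type G1 by -0.61 ± 0.07 (adjusted p = 4.42e-06) and lower in S than in bypass G1 by -0.77 ± 0.07 (adjusted p = 3.84e-07). Between the G1 groups it was higher in bypass G1 by 0.16 ± 0.07 (adjusted p = 0.0792). That call was lost in 9 of 20 alternatives, in each case with SIC1 still higher in bypass G1. In replicates 3 and 4 alone the difference was 0.09 (adjusted p = 0.237), and without bypass G1 replicate 4 it was 0.13 (adjusted p = 0.199).

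SWE1 (YJL187C, chromosome 10, 76803 to 79262 on the - strand, 1 coding exon), the inhibitory tyrosine kinase, was the 1 gene of the 8 called higher in S than in wild-type G1. Its levels were 48.3, 43.8, 45.0 and 43.1 CPM in bypass G1 and 37.5, 40.2, 30.9 and 36.9 CPM in wild-type G1. In S they were 169, 155, 177 and 173 CPM. The groups did not overlap, with wild-type G1 lowest and S highest. SWE1 was 4.64-fold higher in S than in wild-type G1 (log2 fold change 2.21 ± 0.07, adjusted p = 9.98e-12), where 55 genes had a higher value, and 3.74-fold higher in S than in bypass G1 (1.90 ± 0.07, adjusted p = 3.44e-11). Between the G1 groups it was higher in bypass G1 by 0.31 ± 0.08 (adjusted p = 0.00516), and this call held in all 20 alternatives run.

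MIH1 (YMR036C, chromosome 13, 341856 to 343520 on the - strand, 1 coding exon), the phosphatase that opposes Swe1, was likewise higher in bypass G1 than in wild-type G1 but lower in S. Its levels were 63.9, 65.5, 69.7 and 64.0 CPM in bypass G1, 53.1, 56.7, 56.6 and 48.4 CPM in wild-type G1, and 44.3, 45.5, 48.7 and 45.7 CPM in S. Bypass G1 lay above both other groups, and wild-type G1 overlapped with S through its replicate 4. The log2 fold change between the G1 groups was 0.29 ± 0.06 (adjusted p = 0.00118), and the call held in all 20 alternatives. MIH1 was lower in S by -0.22 ± 0.06 against wild-type G1 (adjusted p = 0.00340) and by -0.51 ± 0.06 against bypass G1 (adjusted p = 2.24e-06). With spike-in scaling the difference between S and wild-type G1 was -0.15 and not called (adjusted p = 0.199).

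CDH1 (YGL003C, chromosome 7, 492474 to 494174 on the - strand, 1 coding exon), the G1 activator of the APC/C, was called lower in S with TMM scaling and was not called between the G1 groups. Its levels were 51.2, 49.3, 55.3 and 54.3 CPM in bypass G1, 50.3, 54.7, 54.4 and 52.5 CPM in wild-type G1, and 46.1, 46.1, 49.1 and 42.1 CPM in S. The S samples lay below all G1 samples, whose groups overlapped. CDH1 was lower in S by -0.21 ± 0.06 against wild-type G1 (adjusted p = 0.00476) and by -0.20 ± 0.06 against bypass G1 (adjusted p = 0.00650). The first of these was at -0.13 and not called with spike-in scaling (adjusted p = 0.229), and the other was at -0.12 and not called in replicates 1 and 2 alone (adjusted p = 0.130). Between the G1 groups its log2 fold change was -0.01 ± 0.06 (adjusted p = 0.889), and with spike-in scaling it was called higher in bypass G1 at 0.21 (adjusted p = 0.0878), close to the shift of 0.20 in all genes.

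CDC4 (YFL009W, chromosome 6, 116145 to 118484, 1 coding exon), which recognises phosphorylated Sic1 and Far1, was the gene called in 0 of the 3 comparisons. Its levels were 88.4, 88.0, 82.3 and 87.8 CPM in bypass G1, 84.2, 77.0, 87.3 and 86.0 CPM in wild-type G1, and 86.9, 87.0, 81.3 and 87.2 CPM in S. All 3 groups overlapped. The log2 fold changes were 0.05 ± 0.05 between bypass G1 and wild-type G1 (adjusted p = 0.406), 0.03 ± 0.05 between S and wild-type G1 (adjusted p = 0.525) and -0.02 ± 0.05 between S and bypass G1 (adjusted p = 0.749). With spike-in scaling CDC4 was called higher in bypass G1 at 0.26 (adjusted p = 0.0325), beside the median of 0.20 for all genes. In replicates 1 and 2 alone, CDC4 passed the threshold at 0.14 in bypass G1 (adjusted p = 0.0364) and at 0.12 in S (adjusted p = 0.0614) against wild-type G1, and in replicates 3 and 4 alone it was at -0.03 and -0.04. CDC4 is also the gene of the 8 whose sequence is not fully unique. A stretch from 117416 to 118029 on chromosome 6 shares windows of 42 bases, the read length, with RRT13 on chromosome 5 (289836 to 290449), and 86.1% of the CDC4 windows occur once in the genome against 100% for the other 7 genes. Read pairs with more than 1 place were not counted, so that CDC4 levels may be understated relative to the other genes, and RRT13 itself had between 48 and 124 counts per sample.

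Counted by overlap of samples rather than by the test, 4 of the 8 genes did not overlap between bypass G1 and wild-type G1 (CDC28 and FAR1 lower, SWE1 and MIH1 higher), against 44.0% of all genes (22.1% higher and 21.9% lower). The number was 5 of 8 between S and wild-type G1 (SWE1 higher, CDC28, SIC1, FAR1 and CDH1 lower), against 73.9% (35.8% higher and 38.1% lower). It was 7 of 8 between S and bypass G1 (SWE1 and CKS1 higher, CDC28, SIC1, FAR1, MIH1 and CDH1 lower), against 81.7% (40.0% higher and 41.6% lower). Both comparisons with wild-type G1 use the same control samples, so that nothing is drawn from values of like sign. In bypass G1 and in S, respectively, the log2 fold changes were -0.31 and -0.62 for CDC28, -0.38 and -5.05 for FAR1, 0.31 and 2.21 for SWE1, 0.16 and -0.61 for SIC1, and 0.29 and -0.22 for MIH1.

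**Figure D2:**
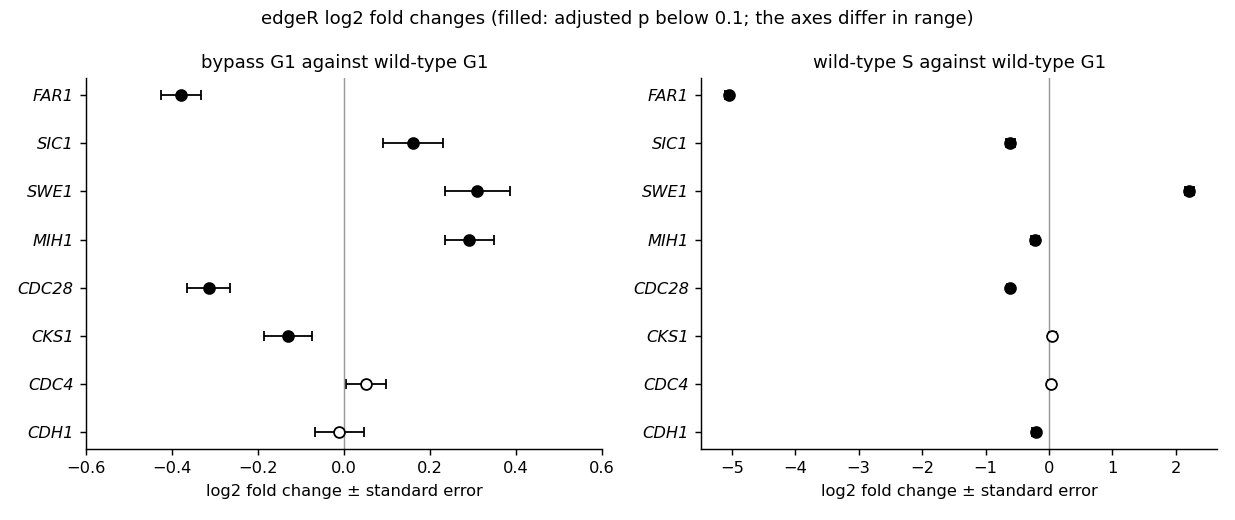
Log2 fold changes (horizontal axes, whose ranges differ) of the 8 genes in bypass G1 on the left and in S on the right, both against wild-type G1; points are edgeR estimates, bars their standard errors, and filled points have an adjusted p below 0.1. On the left the values run from -0.38 (FAR1) to 0.31 (SWE1), and on the right from -5.05 (FAR1) to 2.21 (SWE1), with CKS1 and CDC4 at 0.05 and 0.03.

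Levels of different genes were compared in TPM, which corrects for gene length. In wild-type G1 the order was FAR1 (670 ± 30.1 TPM, SD, n = 4), CDC28 (203 ± 3.91), CKS1 (148 ± 11.4), SIC1 (68.5 ± 5.70), CDC4 (37.0 ± 2.39), MIH1 (33.4 ± 2.48), CDH1 (32.2 ± 1.46) and SWE1 (15.3 ± 1.50), where CDC4 overlapped with MIH1 and MIH1 with CDH1. In bypass G1 the order was FAR1 (516 ± 21.2 TPM), CDC28 (163 ± 4.66), CKS1 (135 ± 4.53), SIC1 (76.5 ± 3.63), MIH1 (40.9 ± 1.62), CDC4 (38.3 ± 1.37), CDH1 (31.9 ± 1.63) and SWE1 (18.9 ± 1.05), with no overlap between neighbours. In S the inhibitors changed places. There the order was CKS1 (137 ± 7.80 TPM) and CDC28 (118 ± 9.78), which overlapped, then SWE1 (63.4 ± 3.85), SIC1 (40.0 ± 4.12), CDC4 (33.8 ± 1.04), MIH1 (25.6 ± 1.23) and CDH1 (24.9 ± 1.56), which overlapped, and FAR1 (18.0 ± 0.435). The place of CDC4 beside its neighbours is uncertain, because its level may be understated (86.1% of its windows are unique). FAR1 was thus the most abundant of the 8 transcripts in both G1 groups and the least abundant in S. It made up 55.5% ± 1.78 of their summed TPM in wild-type G1, 50.5% ± 0.900 in bypass G1 and 3.92% ± 0.169 in S. On the TPM scale the median log2 ratio of all genes was -0.18 between S and either G1 group, against -0.02 on the CPM scale. TPM levels of single genes were therefore not compared between groups. Only the sums of marker transcripts and the shares and ratios within a sample were.

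Ratios of transcripts that act against each other do not depend on the scaling of a library and are given as a description, without a test. The ratio of SWE1 to MIH1, the kinase and the phosphatase of the inhibitory tyrosine, had a geometric mean of 0.463 in bypass G1 (range 0.437 to 0.512) and 0.457 in wild-type G1 (0.369 to 0.516). In S it was 2.48 (2.31 to 2.59), so that the more abundant transcript of the pair was MIH1 in all 8 G1 samples and SWE1 in all 4 S samples. The ratio of FAR1 to CDC28 was 3.16 in bypass G1 (3.08 to 3.24), 3.30 in wild-type G1 (3.11 to 3.41) and 0.153 in S (0.137 to 0.161), with the G1 groups overlapping although each transcript alone differed between them. The ratio of SIC1 to CDC28 was 0.468 in bypass G1 (0.450 to 0.485), 0.337 in wild-type G1 (0.305 to 0.380) and 0.338 in S (0.323 to 0.351). Here bypass G1 stood apart from the other groups, which overlapped, since SIC1 and CDC28 were both lower in S. The ratio of CDH1 to CDC28 was 0.196 in bypass G1 (0.185 to 0.213), 0.159 in wild-type G1 (0.149 to 0.170) and 0.211 in S (0.175 to 0.226), where wild-type G1 lay below both other groups.

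**Figure D3:**
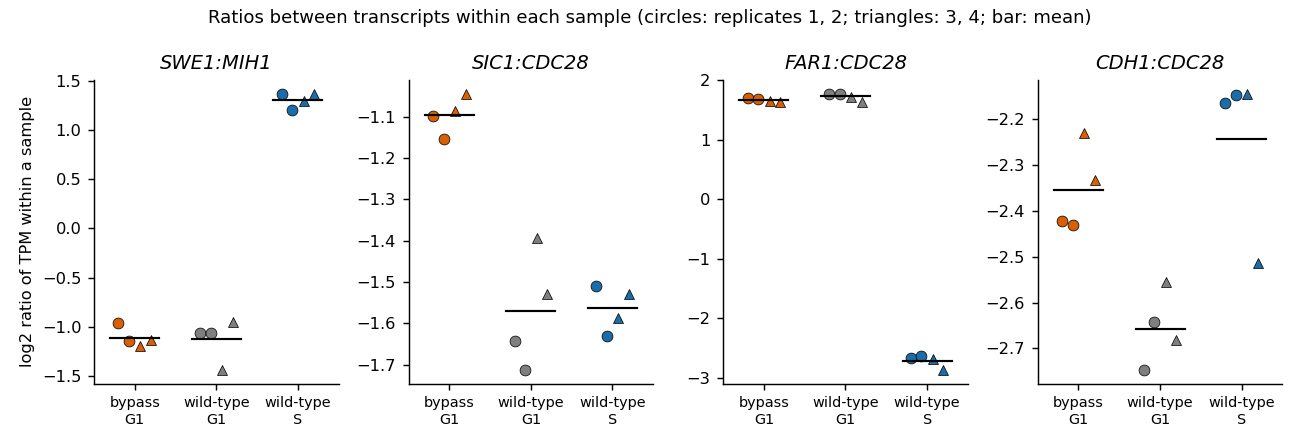
Log2 ratios of TPM within each sample for SWE1 to MIH1, SIC1 to CDC28, FAR1 to CDC28 and CDH1 to CDC28 (vertical axes, whose ranges differ); each point is 1 sample, circles are replicates 1 and 2, triangles replicates 3 and 4, and the bar is the mean of the log2 ratios. SWE1 to MIH1 lies below 0 in all G1 samples and above 0 in all S samples, FAR1 to CDC28 lies above 0 in all G1 samples and below 0 in all S samples, and SIC1 to CDC28 is highest in bypass G1.

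For the 3 inhibitor genes, the genes with the most similar pattern over the 12 samples were found by Pearson's r of log2(CPM + 1). The samples fall into 3 groups, so that these values mostly reflect shared group means. Closest to FAR1 were PTP2, a phosphotyrosine phosphatase (r = 0.999), KAR4, a transcription factor of the mating response (r = 0.999), and KTR2, a mannosyltransferase (r = 0.999). KAR4 stood at 1432 ± 68.3 CPM (SD, n = 4) in bypass G1, 1655 ± 105 CPM in wild-type G1 and 45.2 ± 2.15 CPM in S. Closest to SWE1 were SRL1, a cell wall mannoprotein (r = 0.996), TEF4, a translation elongation factor subunit (r = 0.996), and MNN1, another mannosyltransferase (r = 0.995). SRL1 stood at 138 ± 4.61, 96.4 ± 3.59 and 1300.1 ± 22.2 CPM in the same order of groups, and MNN1 at 43.7 ± 0.920, 33.5 ± 2.43 and 353 ± 8.18 CPM. Closest to SIC1 were HES1 (r = 0.995), YER039C-A (r = 0.989) and AVO2, a subunit of the TORC2 complex (r = 0.987), of which AVO2 stood at 30.9 ± 0.601, 27.8 ± 2.05 and 15.7 ± 2.66 CPM. HES1 and YER039C-A were scarce, at 1.26 ± 0.482 and 1.31 ± 0.354 CPM in S. At such levels the added 1 compresses differences.

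The genes around the 8 were counted by list, without a test of any list. With counts summed within each replicate pair, 14 of the 34 listed genes named between the G1 groups, markers included, lost their call. Among these were APC5, HRT1, RTS1, CDC14, DBF20, PHO85, MCM1, CLA4, HSL1, MOB1 and NET1. Of all genes tested, 40.4% were higher and 43.3% lower in S than in wild-type G1, and 26.0% were higher and 28.5% lower in bypass G1, with a median log2 fold change of -0.02 in both. Of 6 transcription factors of SIC1, FAR1 and SWE1, 4 were higher and 1 was lower in S than in wild-type G1 (median 0.35), so that 5 of 6 were called against 83.8% of all genes. SWI5 (3.09 ± 0.24, adjusted p = 5.61e-08), whose product activates SIC1 late in mitosis and in early G1, was higher in S, where SIC1 was lower. STE12, which drives pheromone-induced genes and FAR1 among them, was lower in S by -2.48 ± 0.05 (adjusted p = 8.63e-14). MBP1, the DNA-binding subunit of MBF, was higher by 0.24 ± 0.05, SWI4 and SWI6, the subunits of SBF, by 0.76 ± 0.09 and 0.47 ± 0.04, and MCM1 was at 0.04 ± 0.04 and not called. In bypass G1, 3 of the 6 were higher than in wild-type G1 and 0 were lower (median 0.14). These were SWI6 (0.48 ± 0.04, adjusted p = 3.52e-06), MBP1 (0.21 ± 0.05) and MCM1 (0.16 ± 0.04).

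For the SCF ligase that works with Cdc4, 6 of the 7 genes of its core and of the other F-box proteins were lower in S than in wild-type G1, against 43.3% of all genes. CDC34, its ubiquitin-conjugating enzyme, was not called (-0.05 ± 0.04, adjusted p = 0.252), nor was CDC4 itself. The median was -0.49. DIA2, an F-box protein, was at -0.66 ± 0.07 (adjusted p = 8.56e-07), the cullin CDC53 at -0.54 ± 0.04 (adjusted p = 9.47e-09), MET30, an F-box protein, at -0.43 ± 0.04 and the adaptor SKP1 at -0.16 ± 0.04, the last at -0.09 and not called with spike-in scaling (adjusted p = 0.396). In bypass G1, 3 of the 7 were higher and 1 was lower (median 0.11), against 26.0% and 28.5% of all genes. The F-box gene GRR1 (0.45 ± 0.04, adjusted p = 4.48e-06), CDC34 (0.28 ± 0.04) and the RING subunit HRT1 (0.21 ± 0.07) were higher, and SKP1 was lower (-0.23 ± 0.04), at -0.02 and not called with spike-in scaling (adjusted p = 0.882).

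The APC/C that works with Cdh1 had calls in both directions. Of its 16 listed genes, 5 were higher, 7 lower and 4 not called in S against wild-type G1 (median -0.16), where 40.4% and 43.3% of all genes were higher and lower. CDC20, the mitotic activator that precedes Cdh1, was lower by -2.68 ± 0.09 (adjusted p = 1.08e-11), and ACM1, an inhibitor of APC/C bound to Cdh1, was higher by 1.77 ± 0.07 (adjusted p = 1.07e-10). CDH1 itself was at -0.21 in the same comparison. MND2 was lower (-0.94 ± 0.07) and CDC23 higher (0.47 ± 0.05). In bypass G1, 4 of the 16 were higher, 4 lower and 8 not called (median 0.01), against 26.0% higher and 28.5% lower of all genes. APC2, the cullin-like subunit, was at 0.77 ± 0.06 (adjusted p = 1.86e-06) and CDC16 at 0.29 ± 0.05, whereas CDC26 was at -0.63 ± 0.12 (adjusted p = 0.00103) and APC5 at -0.29 ± 0.11. The call of APC5 was lost in 3 of 20 alternatives, at -0.07 with spike-in scaling (adjusted p = 0.671) and -0.12 in replicates 1 and 2 alone (adjusted p = 0.251).

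Swe1 is recruited to the bud neck and marked for degradation by a set of proteins, of whose 5 genes 3 were higher and 2 lower in S than in wild-type G1 (median 0.43), against 40.4% and 43.3% of all genes. HSL1, the kinase that recruits Swe1 to the neck, was higher by 1.55 ± 0.14 (adjusted p = 3.61e-07) and the Polo kinase CDC5 by 1.19 ± 0.12 (adjusted p = 9.29e-07), together with SWE1. HSL7, the partner of Hsl1, was lower (-0.41 ± 0.05), as was CLA4, a kinase that phosphorylates Swe1 (-0.36 ± 0.06). In bypass G1, 2 were higher, HSL1 (0.36 ± 0.14) and ELM1 (0.29 ± 0.05), and 2 were lower, HSL7 (-0.33 ± 0.05) and CLA4 (-0.17 ± 0.06). The call of HSL1 was lost in 7 of 20 alternatives, over which its value ran from 0.12 to 0.68, with 0.25 without wild-type G1 replicate 2 (adjusted p = 0.134) and 0.26 without wild-type G1 replicate 1 (adjusted p = 0.139). Under spike-in scaling CLA4 was at 0.05 (adjusted p = 0.742) and HSL7 at -0.11 (adjusted p = 0.331) in that comparison, neither of them called. In replicates 3 and 4 alone CLA4 was also not called (-0.11, adjusted p = 0.149). Of all genes, 26.0% were higher and 28.5% lower there.

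Phosphatases reverse Cdc28 phosphorylation. Of the 10 genes of PP2A and its regulators, 9 were lower and 0 higher in S than in wild-type G1, with ZDS2 not called (median -0.26), against 43.3% lower and 40.4% higher of all genes. IGO1 (-0.87 ± 0.04, adjusted p = 5.91e-10), whose product inhibits PP2A bound to Cdc55, and RIM15, the kinase that activates Igo1 (-0.83 ± 0.05, adjusted p = 3.85e-09), were the lowest, and ZDS1 (-0.18 ± 0.05) and IGO2 (-0.19 ± 0.07) changed least among those called. ZDS1 and IGO2 were not called with spike-in scaling (-0.10 and -0.12, adjusted p = 0.338 and 0.304) or in replicates 1 and 2 alone (-0.10 and -0.08, adjusted p = 0.141 and 0.380). In bypass G1, 4 of 10 were higher and 2 lower (median 0.12), against 26.0% and 28.5% of all genes, with RIM15 at 0.71 ± 0.05 (adjusted p = 3.87e-07), the regulatory subunit RTS1 at 0.20 ± 0.04, the catalytic subunit PPH22 at -0.28 ± 0.05 and IGO1 at -0.22 ± 0.04. With spike-in scaling PPH22 was at -0.06 (adjusted p = 0.605) and IGO1 at -0.00073 (adjusted p = 0.996), neither of them called. RIM15 thus lay above wild-type G1 in bypass G1 and below it in S.

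The phosphatase Cdc14 and the mitotic exit network that releases it had 5 genes higher and 5 lower of 10 in S (median -0.04), against 40.4% and 43.3% of all genes. The kinase DBF2 and its partner MOB1 were lower by -3.36 ± 0.07 (adjusted p = 9.10e-14) and -1.29 ± 0.08 (adjusted p = 5.87e-09), whereas BFA1 (1.06 ± 0.08), part of the brake on the network, and LTE1 (0.77 ± 0.06), which promotes it, were higher. In bypass G1, 6 of the 10 were not called, CDC14 (0.12 ± 0.03) and DBF20 (0.29 ± 0.09) were higher and MOB1 (-0.19 ± 0.08) and NET1 (-0.08 ± 0.04) were lower. With spike-in scaling MOB1 was at 0.02 and NET1, which anchors Cdc14 in the nucleolus, at 0.14, neither of them called. The call of NET1 was also lost in 14 other alternatives of 20, with DESeq2 among them (adjusted p = 0.152), and that of MOB1 in 7 others. In replicates 1 and 2 alone NET1 was at -0.05 (adjusted p = 0.290) and MOB1 at -0.09 (adjusted p = 0.197), so that both calls are uncertain. Of the 6 genes for the Cdk-activating kinase and the other Cdks, 4 were lower and 0 higher in S (median -0.30), against 43.3% and 40.4% of all genes. They were CAK1 (-0.60 ± 0.08), whose product phosphorylates Cdc28 on its activation loop, PHO85 (-0.57 ± 0.04), SSN3 (-0.46 ± 0.05) and SGV1 (-0.14 ± 0.05), the last not called with spike-in scaling (-0.06, adjusted p = 0.622) or in replicates 3 and 4 alone (-0.09, adjusted p = 0.119). In bypass G1, 3 of these 6 were higher and 0 lower (median 0.14), against 26.0% and 28.5% of all genes, SSN3 by 0.30 ± 0.05, CTK1 by 0.26 ± 0.06 and PHO85 by 0.15 ± 0.04.

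**Figure D4:**
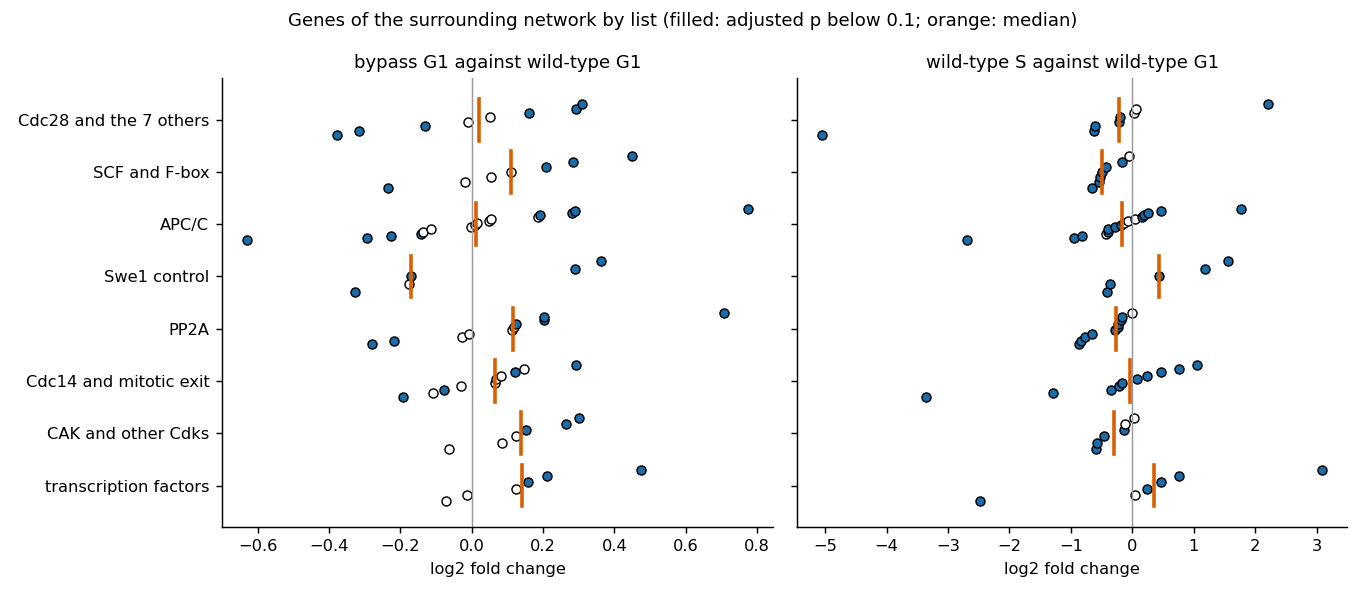
Log2 fold changes (horizontal axes, whose ranges differ) of the 8 genes and of the genes of 7 surrounding lists in bypass G1 on the left and in S on the right, both against wild-type G1; each point is 1 gene, filled where the adjusted p is below 0.1, and the orange mark is the median of the list. On the right the SCF genes lie at or below -0.05 and the PP2A genes from -0.87 to -0.0040, while the transcription factors run from -2.48 (STE12) to 3.09 (SWI5).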

How the data were processed

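Polyadenylated RNA of 12 samples, with ERCC spike-in RNA added, was sequenced as paired-end reads of 42 bases. Reads were aligned by the authors to sacCer3 with STAR 2.7.10a, sorted with SAMtools 1.12 and counted per gene with HTSeq 2.0.1, by strand and without read pairs that map to more than 1 place, so that repeated sequence lowers a count. The authors deposited raw counts per gene, neither normalized nor filtered, and used DESeq2 1.36.0 on them. Each sample lists 6504 features, 92 of them spike-ins. The 5 summary rows of HTSeq, 9.28% to 11.5% of all counts, and the spike-ins, 1.81% to 2.37% of the counts on genes, were left out of library sizes and tests. There were 0 unused columns of sample values.

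Groups were taken from the sample titles. Counts were tested with edgeR 4.0.16 in R 4.3.3 (TMM, filterByExpr with a minimum count of 10, glmQLFit and glmQLFTest on all 12 samples in 3 groups, Benjamini-Hochberg adjustment over the 5662 genes kept, called below 0.1). The common biological coefficient of variation was 0.0826. Standard errors are log2 fold changes, taken as positive, divided by the square root of F. TPM were computed from counts and the coding lengths of the RefSeq R64 gene table, which matched 6177 of the 6412 genes and 99.8% of their counts. Promoters were read from the R64 genome. The script for the test was checked on simulated counts, drawn independently for each sample with a single dispersion and without pairs of similar replicates. That check says nothing of error rates where replicates come in such pairs. Other steps used Python 3.11.15, pandas 2.3.3, numpy 2.4.6 and matplotlib 3.10.9.

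The 8 genes and the gene lists were chosen with earlier results of these data known. In each list, the genes named are the 2 with the highest and the 2 with the lowest log2 fold change among those called, in bypass G1 and in S against wild-type G1, and for SIC1, FAR1 and SWE1 the 3 genes with the most similar pattern. One gene of the lists is not reported here and was left out of its list. RRT13, which the rule does not name, and MCM1, CDC34 and ZDS2 where they were not called, were named after their values were seen. SWI6 in S is also outside the rule, and its value there was not run under the alternatives. Alternatives were DESeq2 1.42.0, other normalizations and filters, an adjusted p below 0.05, a fit with the replicate number as a block, fits restricted to the compared groups, pairs of replicates, and leaving out each replicate.

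The mean chi-square per gene was 1.48 to 2.43 within replicates 1 and 2 and within 3 and 4 of a group. Between these pairs it was 3.02 to 3.49 in bypass G1, 7.33 to 7.96 in S and 43.2 to 46.6 in wild-type G1. The correlation of the deviations of same-numbered samples from their group means was 0.071, 0.227, 0.134 and 0.199 between bypass G1 and wild-type G1. It was 0.177, 0.104, 0.103 and 0.160 between S and wild-type G1, and 0.0130, 0.00922, 0.0111 and -0.00112 between S and bypass G1. Unlike numbers of the same replicate pair could correlate as highly. Bypass G1 replicate 2 was at 0.202 with wild-type G1 replicate 1, and S replicate 4 at 0.200 with wild-type G1 replicate 3. A pairing of single samples by number was therefore not shown, apart from the split of replicates 1 and 2 from 3 and 4. Nothing in the labels says what a number shares.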

Additional observations from a re-analysis of the deposited data

Results flagged for a closer look

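CDC4 in bypass G1 was at 82.3 CPM in replicate 3, apart from the other 3 samples of the group at 87.8 to 88.4 CPM. In wild-type S, CDC4 was likewise at 81.3 CPM in replicate 3 and at 86.9 to 87.2 CPM in the others. Both samples were found by the gap of the lowest sample to the next as a share of the range of the group, in a search of 24 groups of 4 values (8 genes in 3 groups), in which chance alone gives about 1 in 20 groups or 1.2 in all.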

How the results depend on the processing

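Of the 480 values of the 24 fold changes of the 8 genes under alternatives, 439 kept their direction and their side of the threshold, 24 lost a call with the same direction, 3 gained one with the same direction and 14 turned in direction, of which 1 was called after it turned (CDH1 with spike-in totals) and 1 had been called before (CKS1 with spike-in totals). The calls of CDC28, SIC1, FAR1 and SWE1 between S and wild-type G1 and of SWE1 and MIH1 between the G1 groups held in all 20 alternatives each. Without one replicate at a time, 4 to 6 of the 8 genes were called between the G1 groups, 6 between S and wild-type G1 and 7 between S and bypass G1. Of all genes, 5671 to 5684 were tested in these fits. Those called numbered 2704 to 3164, 4646 to 4731 and 4717 to 4764 in the same order of comparisons. The values that turned in direction were of CKS1, CDH1 and CDC4. CDH1 between the G1 groups was at 0.00370 with RLE normalization, 0.208 with spike-in totals (adjusted p = 0.0878), 0.0306 in replicates 3 and 4 alone, and -0.0368 to 0.0167 without one replicate at a time (above 0 in 3 of these fits). CDC4 was at -0.0315 between the G1 groups in replicates 3 and 4 alone. Between S and wild-type G1, CDC4 was at -0.0404 with library totals, -0.0414 in replicates 3 and 4 alone and -0.00294 to 0.0585 without one replicate at a time (below 0 without wild-type G1 replicate 2). Between S and bypass G1 it was at 0.00249 with DESeq2 and at -0.0408 to 0.00852 without one replicate at a time (above 0 without S replicate 3). CKS1 was at 0.0873 between the G1 groups with spike-in totals and at -0.0195 between S and wild-type G1 with library totals. With spike-in totals CDC4 was called higher in bypass G1 (0.26, adjusted p = 0.0325), and 91.0% of the 2786 genes called there were higher in bypass G1, against 47.7% with TMM. For CDC4 and for CKS1 with library totals the cause was not tested. Of the listed genes, 3 turned with spike-in totals between the G1 groups: MOB1 (0.0240), NET1 (0.138) and CLA4 (0.0450). Spike-in totals moved the median of all genes to 0.20 between the G1 groups and to -0.16 between S and bypass G1. CKS1 was then at 0.04 between S and bypass G1 (adjusted p = 0.680).

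Summing counts within replicates 1 and 2 and within 3 and 4, which leaves 2 values per group, gave 1471 genes called between the G1 groups in place of 3083, and 4 of the 8 genes, without CKS1 (adjusted p = 0.255) and SIC1 (adjusted p = 0.274). Of the 34 listed genes named for that comparison, 14 then lost their call, HRT1, RTS1, CDC14, DBF20, PHO85, MCM1, FUS1 and FUS2 among them. With the replicate block, 3110, 4760 and 4834 genes were called in the 3 comparisons, against 3083, 4743 and 4818 without it, and the block changed no call of the 8 genes. With 600 bases before the start in place of the 300-base window, 3 of the 8 genes had a CNCGAAA match in place of 1, 1 had TGAAACA in place of 0, 0 had ACGCGT with either, and 5 had CCAGC in place of 4. Of the 5999 genes with the longer window, 24.7%, 14.6%, 6.33% and 43.2% had a match, in the same order of motifs. A comparison of protein features was not run. Depth and the pairs of similar replicates may limit the precision of the smallest changes, which was not tested. The lowest counts of the 8 genes were 261 for SIC1 and 321 for SWE1.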
